A study of Mus musculus with 96 samples.

Results

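The neurons described here were principal neurons of the mouse lateral superior olive (pLSOs) whose spontaneous inhibitory postsynaptic currents (sIPSCs) decayed either fast or slowly. They were chosen by the sIPSC decay time constant that the labels give for each neuron: 17 neurons at 1.30 ms or less formed the fast group and 20 neurons at 1.60 ms or more formed the slow group. These 37 neurons came from 51 pLSOs with a labelled decay time constant, in a series of 86 neurons and 10 negative controls, and the 14 pLSOs between the limits served as an intermediate group. A further 4 libraries labelled as pLSOs were left out by the rule, and 1 pLSO carried no sIPSC values.

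All neurons were recorded in whole-cell mode in coronal brainstem slices of juvenile C57BL/6J mice of both sexes around the onset of hearing, and the cytoplasm was then drawn into the patch pipette and sequenced. No genotype or treatment separated the groups. The labels sort pLSOs into Onset neurons, which fire at the start of a depolarizing step, and Sustained neurons, which fire throughout. The fast group held 15 Onset and 2 Sustained neurons and the slow group 12 Onset and 8 Sustained neurons, so firing type and sIPSC decay were partly confounded, and values for the Onset neurons alone are given beside the main results. The labels name no animals, so neurons of 1 animal cannot be told apart from neurons of several, and each group counts as 1 sample. No test was therefore made between the groups, and all differences are descriptions of these neurons.

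Principal neurons compare the level of sound at the ears: excitation arrives from the ipsilateral cochlear nucleus and glycinergic inhibition from the medial nucleus of the trapezoid body, which is driven by the contralateral ear. Glycine and GABA act on pentameric chloride channels, and the subunits that form the pentamer set how long the channel stays open. During development, glycine receptors change from the alpha2 to the alpha1 subunit, which gives faster currents, while the beta subunit anchors the receptor to the scaffold protein gephyrin at the synapse. The time course measured at the soma also depends on the passive properties of the cell and on how well the voltage of the dendrites is held.

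The decay time constant ran from 0.44 to 1.28 ms in the fast group, with a median of 1.11 ms, and from 1.60 to 3.60 ms in the slow group, with a median of 1.80 ms. The last fast neuron at 1.28 ms was followed by an intermediate neuron at 1.31 ms, and the first slow neuron at 1.60 ms was preceded by one at 1.56 ms, so the limits cut through a continuous range. Both the fastest and the slowest neurons were Sustained, at 0.44 ms and 3.60 ms, and within Onset neurons the range was 0.84 to 2.07 ms.

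Slow sIPSCs also rose more slowly, but they were not smaller. The 10-90% rise time had a median of 0.31 ms in fast neurons, with a range of 0.17 to 0.50 ms, and of 0.455 ms in slow neurons, with a range of 0.34 to 1.72 ms. The slow neuron had the longer rise time in 92.9% of the 340 possible pairs of 1 fast and 1 slow neuron. This percentage, called the pair share below, is 50% where neither group is higher, and equal values count equally for both sides. Median sIPSC amplitude was 27.4 pA in fast and 27.7 pA in slow neurons, with a pair share of 49.9%. Rise and decay come from the same averaged events, and their relation is thus no separate observation.

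The time course of the excitatory currents of the same neurons did not follow the division, whereas their amplitude was lower in slow neurons. The decay time constant of spontaneous excitatory postsynaptic currents (sEPSCs) had a median of 0.77 ms in 17 fast neurons and 0.74 ms in 19 slow neurons, and its pair share was 49.8%. Means differed by 0.00567 ms, against an SD over neurons of 0.112 ms in the fast and 0.133 ms in the slow group. Median sEPSC amplitude was 27.3 pA in fast and 22.3 pA in slow neurons, with a pair share of 33.1% in all neurons and 20.0% in Onset neurons. Over the pLSOs with sEPSC values, Spearman's rho of this amplitude with the sIPSC decay time constant was -0.15, and -0.37 in Onset neurons.

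Fast and slow neurons differed most in input resistance among the measures that did not describe the sIPSC. It ran from 16.7 to 114 MΩ in fast neurons, with a median of 30.3 MΩ, and from 38.6 to 147 MΩ in slow neurons, with a median of 65.4 MΩ. The pair share was 89.4%, and 13 of 17 fast neurons lay below every slow neuron. Within Onset neurons the medians were 30.0 and 49.4 MΩ and the pair share was 90%. The membrane time constant followed, with medians of 2.2 and 4.85 ms and a pair share of 84.4%, while capacitance did not, with medians of 0.073 and 0.0725 nF and a pair share of 50.4%.

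**Figure D1:**
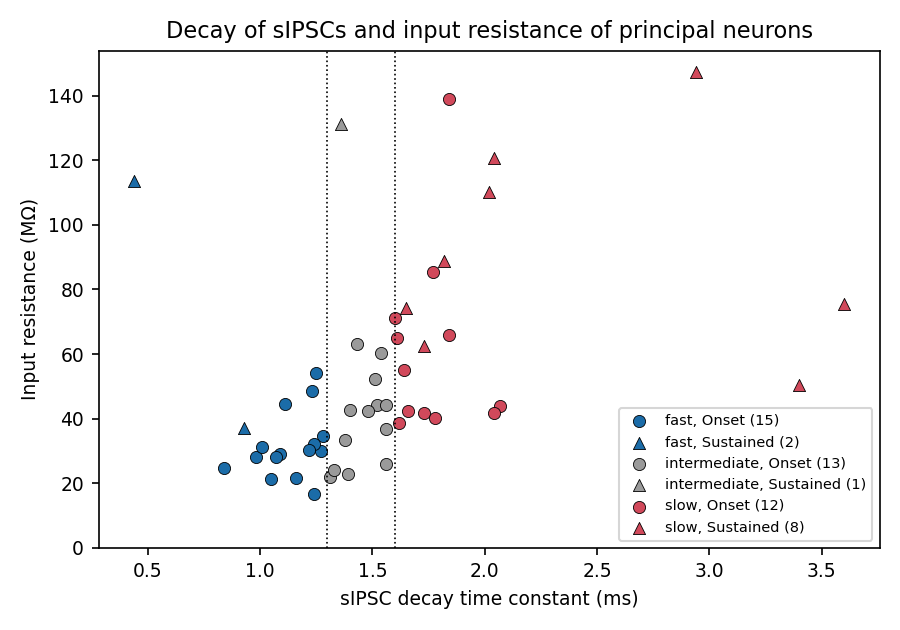
Input resistance (MΩ) against the sIPSC decay time constant (ms) of the 51 pLSOs, 1 symbol per neuron, coloured by group and shaped by firing type; dotted lines mark the limits of 1.30 and 1.60 ms. Most fast neurons sit below the slow ones, whose lowest input resistance was 38.6 MΩ, and 1 Sustained fast neuron at 0.44 ms stands apart at 114 MΩ.

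Sag and spike width were also larger in the slow group, whereas resting potential was alike. Median sag amplitude, the depolarizing relaxation during hyperpolarization that is typical of HCN channels, was 4.9 mV in fast and 10.4 mV in slow neurons, with a pair share of 77.6%. Median half-width of the action potential was 0.29 and 0.42 ms, with a pair share of 75.9%. Resting potential had medians of -64.7 and -65.7 mV and a pair share of 44.4%. Over the 51 pLSOs, Spearman's rho with the decay time constant was 0.59 for input resistance, 0.54 for the membrane time constant, 0.38 for sag and, in the 49 pLSOs with sEPSC values, -0.04 for sEPSC decay, all measured in the same recordings. Whether input resistance accounts for part of the difference in sIPSC decay was not tested.

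Libraries of both groups resembled each other in the number of genes detected at 1 TPM or more (TPM being transcript abundance scaled for gene length and library size), though slow neurons reached higher. Fast neurons had 1333 to 4022 detected genes, with a median of 2389, and slow neurons 1872 to 6276, with a median of 2560.5, while 8 negative controls had 285 to 1271. The pair share of detected genes was 60.9%. Of the 37 neurons, 26 had a column in a supplementary table of the study, and for 24 of them its values were those of the library deposited under that name. The other 2 libraries, of the fast Onset neurons cell_33 and cell_35, appear there under the names of other neurons, and 2 negative controls appear there under neuron names. Results are therefore also given without cell_33 and cell_35, and the 2 controls were left out of the background.

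Markers placed both groups among principal neurons. All 6 pLSO markers were detected in both groups, and the summed level of these markers ranged from 188 to 1468 TPM in fast and from 15 to 1131 TPM in slow neurons, with a pair share of 31.8%. Of the 8 markers of lateral olivocochlear neurons (LOCs), Chat, Ucn, Isl1 and Col4a3 were at 0 in all 37 neurons, and the summed level reached 3 TPM in fast and 58 TPM in slow neurons. Its pair share was 69.9% in all and 68.6% in Onset neurons, and the LOC marker Calca, the gene of the peptide CGRP, was detected in 3 fast and 8 slow neurons, and in 5 of the 8 negative controls. Summed markers of other cells overlapped between the groups: the medians in fast and slow neurons were 677 and 900 TPM for 9 astrocyte markers, 352 and 793.5 TPM for 9 oligodendrocyte markers, and 3 and 16 TPM for 8 microglia markers, with pair shares of 53.4%, 50.0% and 58.7%. Their part in the differences below was not tested.

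Of the glycine receptor genes, Glra1, which codes for the alpha1 subunit, was found more often and at higher values in fast neurons. It was detected in 12 of 17 fast neurons (70.6%, 95% Clopper-Pearson interval 44.0 to 89.7%), in 8 of 14 intermediate neurons (57.1%) and in 9 of 20 slow neurons (45.0%, interval 23.1 to 68.5%). These intervals cover counting error over neurons only, and they overlap. In fast neurons the values ran from 0 to 6056 TPM with a median of 249 TPM, and in slow neurons from 0 to 6232 TPM with a median of 0 TPM. At 1000 TPM or more, a level chosen after the values were seen, stood 5 fast neurons, 3 intermediate neurons and 1 slow neuron.

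The mean of Glra1 was 1226 TPM in fast, 1009 TPM in intermediate and 443 TPM in slow neurons. A single slow Onset neuron, at 6232 TPM and a decay time constant of 1.61 ms, carried most of the slow mean, which was 139 TPM without it. The intermediate mean likewise fell to 474 TPM without its highest neuron, cell_31 at 7957 TPM, and the fast mean to 924 TPM. The values of cell_31 stand under the name cell_33 in the supplementary table, and those of cell_33 under cell_31. Mean log2(TPM + 1) was 6.54 ± 4.76 in fast and 3.93 ± 4.57 in slow neurons (SD over neurons), a difference of -2.61 (slow minus fast) that is smaller than the spread within either group. The pair share was 35.4%: in most pairs the fast neuron had the higher Glra1 value. It was 34.2% without cell_33 and cell_35, so the position near the limit of 35% used below depends on 2 libraries.

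Glra1 differed more within Onset neurons. It was detected in 11 of 15 fast and 4 of 12 slow Onset neurons, with means of 1288 and 593 TPM and a pair share of 31.1%. Among the 16 fast and 8 slow neurons with an input resistance of 60 MΩ or less the pair share was 25.8%, and among the 13 fast and 13 slow neurons with 2000 to 3500 detected genes it was 21.0%. With the limits moved to 1.20 and 1.80 ms, which left 10 neurons in each group, it was 18.5%. The pair share of Glra1 was nearer to 50% in 3 alternatives. It was 38.5% with the left-out libraries in range, 36.6% with all pLSOs divided at the median decay time constant and 43.5% at the median rise time. One of the 8 negative controls also held Glra1, and the mean of the 8 was 351 TPM, which lies below the slow mean of 443 TPM and above that mean without its highest neuron.

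Glrb, the beta subunit, was the receptor gene found in most neurons and differed less. It was detected in 14 of 17 fast neurons (82.4%, interval 56.6 to 96.2%), 13 of 14 intermediate neurons and 15 of 20 slow neurons (75.0%, interval 50.9 to 91.3%). Its values ran from 0 to 243 TPM in fast neurons, with a median of 54 TPM, and from 0 to 213 TPM in slow neurons, with a median of 23 TPM. The ranges overlapped almost entirely, and only 3 fast neurons exceeded the highest slow neuron. The means were 89.2 and 60.5 TPM, the pair share was 40.0%, and within Onset neurons it was 45.0%. Glrb was at 0 in the 8 negative controls.

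Both subunits were found together in 10 of 17 fast, 7 of 14 intermediate and 8 of 20 slow neurons. Neither was found in 1 fast and 4 slow neurons. Of the other alpha subunits, Glra2, the subunit of immature receptors, was detected in 1 fast neuron at 456 TPM and in 1 slow neuron at 5 TPM, and Glra3 and Glra4 were listed at 0 in all 37 neurons. Taken as 3 over n, the share behind 0 of 20 neurons could be up to 15.0%, and behind 0 of 17 up to 17.6%; the exact Clopper-Pearson upper ends were 16.8% and 19.5%. A difference in the alpha2 transcript was not detectable in these libraries. In the Gencode annotation of GRCm38, Glra1 lies on chromosome 11 from 55514238 to 55608198 and Glrb on chromosome 3 from 80843599 to 80913660, both on the minus strand.

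**Figure D2:**
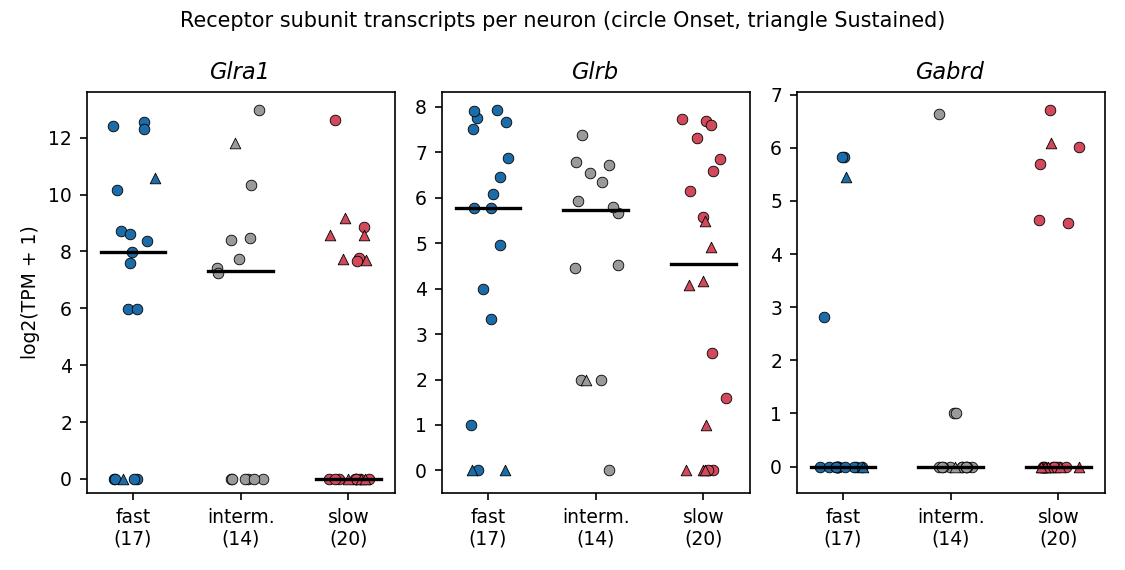
log2(TPM + 1) of Glra1, Glrb and Gabrd in each fast, intermediate and slow pLSO, 1 symbol per neuron (circle Onset, triangle Sustained), with the group median as a bar; the vertical scale differs between genes and their levels are not comparable. The median of Glra1 falls from 249 TPM in fast neurons to 0 TPM in slow ones, while both ranges start at 0, and the values of Glrb and Gabrd overlap widely.

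GABA-A receptor genes did not separate the groups. Of 19 genes, 12 were detected in at least 1 of the 37 neurons, and 4 of them in at least 10, the minimum for a comparison of levels. The pair shares of these 4 ran from 46.5 to 55.0%, with a median of 51.1% in all and 50.8% in Onset neurons. Gabrd, whose delta subunit belongs to extrasynaptic receptors, was detected in 4 fast and 6 slow neurons. Its values ran from 0 to 56 TPM in fast and from 0 to 104 TPM in slow neurons, with medians of 0 TPM. The means were 9.47 and 16.6 TPM, and the pair share was 54.4% in all and 61.7% in Onset neurons.

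Among the rarer GABA-A subunits, Gabrg1 was found in the slow group and in neither of the others. This gamma subunit gene was detected in 5 of 20 slow neurons (25.0%, interval 8.66 to 49.1%), 2 of them Onset neurons, and in 0 of 17 fast neurons, which allows a share of up to 17.6% as 3 over n and of 19.5% by the Clopper-Pearson interval, and in 0 of 14 intermediate neurons. The Clopper-Pearson intervals overlap, and its slow mean of 845 TPM fell to 133 TPM without the highest neuron at 14370 TPM. Gabra2, which codes for an alpha subunit common in the young brain, was detected in 0 fast and 2 slow neurons. Gabrb2 was detected in 4 and 4, Gabra3 in 3 and 3, and Gabra5 in 3 fast and 5 slow neurons. Gabra4 and Gabre were each found in 1 slow neuron and Gabrg3 in 1 fast neuron, and the 7 remaining genes, Gabra6, Gabrb1, Gabrp, Gabrq and Gabrr1 to Gabrr3, were listed at 0.

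**Figure D3:**
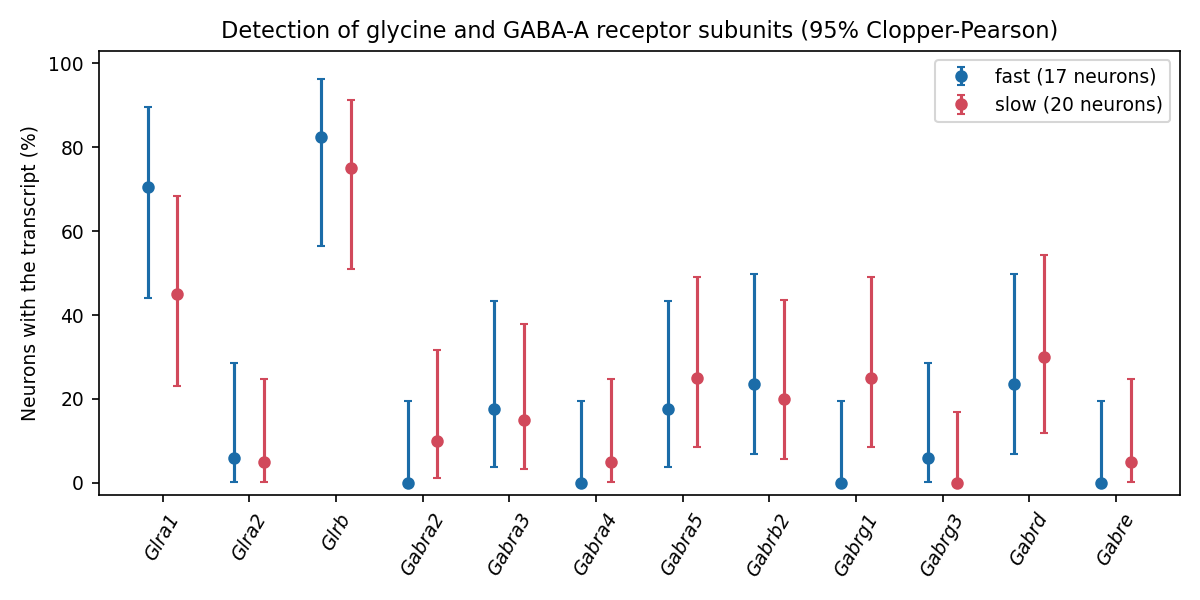
Share of fast (17) and slow (20) neurons in which each glycine or GABA-A receptor subunit gene named in the text was detected at 1 TPM or more, in percent, with exact 95% Clopper-Pearson intervals over neurons; genes listed at 0 in all 37 neurons are not shown. Glra1 stands at 70.6% in fast and 45.0% in slow neurons and Gabrg1 at 0% and 25.0%, and the intervals of the groups overlap for every gene shown.

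Over both receptor families, a neuron showed a median of 4 subunit genes in the fast and 4.5 in the slow group, with a range of 1 to 7 in each. Of all 3749 genes detected in at least 10 of the 37 neurons, 2.96% had a pair share of 35% or less and 7.15% a pair share of 65% or more. None of the 6 receptor genes compared passed either limit in all neurons, and their pair shares of 35.4 to 55.0% had a median of 47.1%, against 52.4% over all genes. By the size of the difference, 8.27% of all genes had a mean log2(TPM + 1) lower by 1 or more in slow neurons and 17.2% a mean higher by 1 or more. Glra1 was the 1 receptor gene of 6 beyond such a difference. Within Onset neurons 5.17% of all genes had a pair share of 35% or less and 9.87% of 65% or more, and Glra1 was again the 1 receptor gene past a limit.

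Across all 51 pLSOs, Glra1 had a Spearman's rho of -0.28 with the decay time constant, and -0.39 in the 40 Onset neurons. Its rho with input resistance was -0.24, so Glra1 went with both recorded measures to a like degree. The rho of Glrb with the decay time constant was -0.14 and -0.05, and with input resistance -0.30. The points share the recording and the library of each neuron, many are tied at 0, and values this low are no finding by themselves.

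No gene of the inhibitory postsynapse or of chloride transport was past a limit of the pair share in all neurons. Of 11 postsynaptic genes compared, 0 passed, where 2.96% and 7.15% of all genes did, and their median pair share was 54.1%. Mean log2(TPM + 1) was higher by 1 or more in slow neurons for 2 of them, Dynll1 (3.58) and Gabarap (1.34). Such a difference was seen in 17.2% of all genes, so nothing is read from this count. Gphn, which codes for gephyrin, was detected in 9 fast and 8 slow neurons, with a pair share of 49.4%. Dynll1, a light chain of dynein that binds gephyrin, was detected in 9 fast and 18 slow neurons, with a pair share of 64.7% that was 51.7% in Onset neurons. Of 5 chloride transport genes compared, 0 passed a limit, and Slc12a5, whose product KCC2 lowers intracellular chloride, was detected in 10 fast and 15 slow neurons with a pair share of 58.7%. Within Onset neurons its pair share was 65.6%, past the limit. Slc12a2, which codes for the chloride importer NKCC1, was detected in 4 fast and 7 slow neurons.

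Among 7 potassium and HCN channel genes compared, 1 was past the limit on each side. Of all genes, 2.96% had a pair share of 35% or less and 7.15% one of 65% or more. Nothing is read from these counts. Kcnq3, a subunit of the Kv7 channels that carry the M-current, was detected in 1 of 17 fast neurons (5.88%, interval 0.149 to 28.7%), 4 of 14 intermediate neurons and 12 of 20 slow neurons (60%, interval 36.1 to 80.9%). The intervals of the fast and slow group do not overlap, but Kcnq3 was 1 of the 12 genes of highest pair share out of 3749, at 76.5% in all and 75.6% in Onset neurons. Its values were low, up to 13 TPM in the fast and 28 TPM in the slow group. Kcna1, a subunit of low-threshold Kv1 channels, was detected in 14 neurons of each group with a pair share of 46.0%.

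Of 8 genes for AMPA receptor subunits and their auxiliary proteins compared, 1 had a pair share of 35% or less and 0 one of 65% or more, against 2.96% and 7.15% of all genes, so nothing is read from the count. Cacng5, an auxiliary subunit of AMPA receptors, was detected in 14 fast and 11 slow neurons, with a pair share of 32.4%, which was 35.3% without cell_33 and cell_35. Gria4, a subunit of fast AMPA receptors, was detected in 15 fast and 13 slow neurons, with a pair share of 45.1%. Of the transmitter genes, Slc17a6, which codes for the vesicular glutamate transporter VGLUT2, was detected in 14 fast and 10 slow neurons with a pair share of 32.4%, and of 35.3% in Onset neurons. Slc6a5, the glycine transporter of glycinergic neurons, was found in 1 fast and 5 slow neurons, all 5 of them Sustained, and Gad1, an enzyme of GABA synthesis, in 1 fast and 6 slow neurons.

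Of all genes, Scn1a, which codes for the sodium channel Nav1.1, had the lowest pair share. It ranged from 4 to 71 TPM in the 17 fast neurons, with a median of 19 TPM, and from 0 to 26 TPM in the 20 slow neurons, with a median of 6 TPM. Of the fast neurons 7 exceeded every slow neuron, and 8 slow neurons lay below every fast one. The pair share was 17.6% in all neurons, 18.6% in Onset neurons, 17.2% at an input resistance of 60 MΩ or less and 16.3% without cell_33 and cell_35. Intermediate neurons lay near the fast group, with a median of 22 TPM. Spearman's rho over the 51 pLSOs was -0.52 with the decay time constant and -0.11 with input resistance. Of the 8 negative controls 2 held Scn1a, with a mean of 0.375 TPM.

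Other sodium channel genes were looked at after the value of Scn1a was seen. Of 7 compared, Scn1a, Scn3a and Scn8a had a pair share of 35% or less, as did 2.96% of all genes, and 0 had one of 65% or more, as did 7.15%. The list was chosen for 1 of its members, so this count is a description. Scn3a was detected in 8 fast and 2 slow neurons, with a pair share of 31.5%. Scn8a, which codes for Nav1.6, the main channel of the axon initial segment in many mature neurons, was detected in 12 fast and 9 slow neurons, with means of 120 and 48.4 TPM and a pair share of 34.9%. Scn2a, which codes for Nav1.2, was detected in 5 and 6 neurons with a pair share of 50.6%.

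Spp1, which codes for osteopontin and is a leading marker of principal neurons, was also lower in slow neurons. It ranged from 44 to 935 TPM in fast neurons, with a median of 382 TPM, and from 0 to 710 TPM in slow neurons, with a median of 140.5 TPM. Of the slow neurons 7 lay below every fast neuron, and intermediate neurons had a median of 366 TPM. It was present in 4 of the 8 negative controls, with a mean of 58.4 TPM. The pair share was 23.2% in all and 23.3% in Onset neurons. Spp1 went with input resistance at a rho of -0.44 and with the decay time constant at -0.40. Of the other pLSO markers, Igsf3 had a pair share of 35.4%, and Lpgat1, Tenm2, Maf and Kcnh7 had pair shares of 47.5 to 56.3%.

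The 10 other genes of lowest pair share had values of 18.5 to 26.6%. Snap25, a protein of the vesicle fusion machinery, was detected in all 37 neurons, with medians of 737 TPM in fast and 356 TPM in slow neurons and a pair share of 25.3%, and it was present in 7 of the 8 negative controls, with a mean of 1108 TPM. Adprh, an ADP-ribosylarginine hydrolase, was detected in 13 of 17 fast and 4 of 20 slow neurons, with a pair share of 18.5%. Cryba2, a beta crystallin, was detected in 10 fast and 3 slow neurons. Nmt2, which attaches myristate to proteins, had medians of 225 and 31 TPM, and Lgmn, a lysosomal cysteine protease, medians of 1558 and 643.5 TPM. Ergic2, Asap1, Ndufc2, Cpeb2 and Bmp2k completed the list, and Ndufc2, a subunit of mitochondrial complex I, had medians of 44 and 16 TPM. All 12 genes also had a pair share of 35% or less in Onset neurons, which are part of the neurons that gave the ranking.

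At the other end of the ranking stood genes of protein synthesis. Rps20, a protein of the small ribosomal subunit, had the highest pair share of all 3749 genes, at 83.5% in all and 83.3% in Onset neurons. It was detected in 3 of 17 fast neurons (17.6%, interval 3.80 to 43.4%), 8 of 14 intermediate neurons (57.1%) and 15 of 20 slow neurons (75.0%, interval 50.9 to 91.3%). Values reached 11 TPM in fast and 52 TPM in slow neurons, and 12 slow neurons exceeded every fast one. Mrps14, a protein of the mitochondrial ribosome, was detected in 1 fast and 13 slow neurons, and within Onset neurons in 0 of 15 and 10 of 12, with a pair share of 91.7%. Rps20 was also found in 3 of the 8 negative controls, with a mean of 60.1 TPM, and Mrps14 in 0.

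Of the 10 other genes of highest pair share, from 75.1 to 77.9%, Rps2, Rps13 and Rps10 code for proteins of the small ribosomal subunit and Eef2 for the elongation factor that moves the ribosome along the message. Eef2 was detected in 6 fast and 17 slow neurons. Taok3, a protein kinase, was detected in 0 of 17 fast neurons, which allows a share of up to 17.6%, in 5 of 14 intermediate neurons and in 11 of 20 slow neurons (55.0%, interval 31.5 to 76.9%). Pmm1, a phosphomannomutase, was detected in 8 fast and 17 slow neurons and Sh3bgrl3 in 7 and 17. Ndufb11, another subunit of complex I, was detected in 9 fast and 18 slow neurons and thus went in the direction opposite to Ndufc2. Psmb6, a catalytic subunit of the proteasome, had medians of 32 and 1254.5 TPM. It was present in 5 of the 8 negative controls, with a mean of 963 TPM. Kcnq3 was described above.

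**Figure D4:**
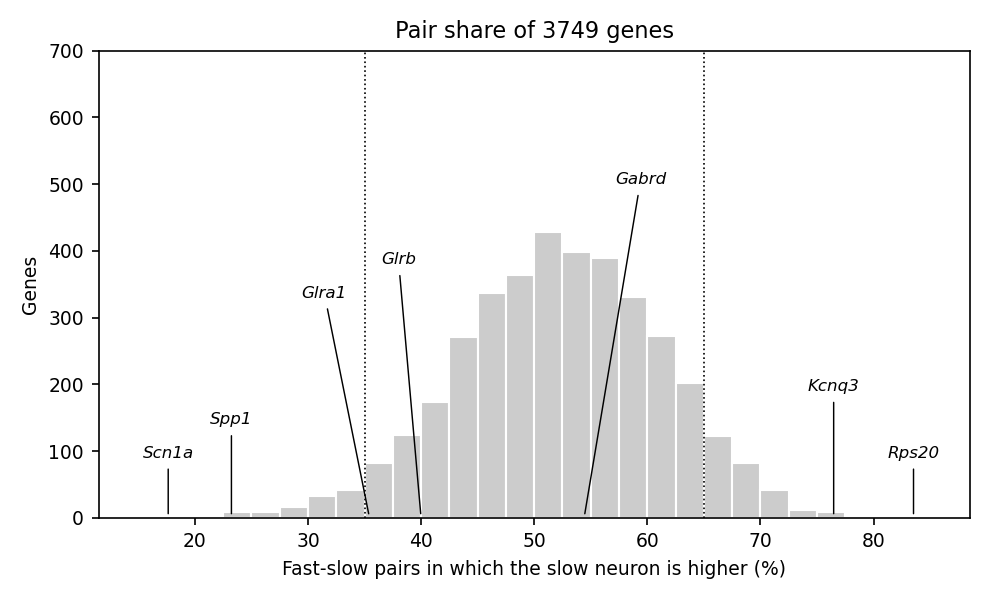
Number of genes by pair share (percent of fast-slow pairs in which the slow neuron is higher) for the 3749 genes detected in at least 10 of the 37 neurons; dotted lines mark 35% and 65%, and lines point to single genes. Glra1 lies at 35.4% and Gabrd at 54.4%, and Scn1a at 17.6% and Rps20 at 83.5% form the ends.

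Genes for cytoplasmic ribosomal proteins were then taken as a group, which was chosen after the ranking was seen. Of 79 such genes, 35 (44.3%) had a pair share of 65% or more, against 7.15% of all genes, and 0 had one of 35% or less. Their median pair share was 63.7%, and it was 62.5% in Onset neurons, in which 32 passed the upper limit and 1, Rpl7, the lower. A neuron showed 19 to 60 of these genes in the fast group, with a median of 47, and 16 to 79 in the slow group, with a median of 61.5. The intermediate neurons lay between, at 27 to 72 with a median of 58.5. The pair share of this number was 81.3%, while that of all detected genes was 60.9%.

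The difference in ribosomal protein genes was as large in neurons with like numbers of detected genes. Among the 13 fast and 13 slow neurons with 2000 to 3500 detected genes, the median pair share was 50.0% over all genes and 63.9% over the ribosomal protein genes. Of the latter 48.1% had a pair share of 65% or more there, against 9.02% of all genes. Whether the number of genes detected in a library has a part in the difference was not tested. The difference in ribosomal protein genes was smaller when all 51 pLSOs, the intermediate ones included, were divided at a median. At the median decay time constant 12.7% of the 79 genes passed the limit, against 3.33% of all genes. At the median rise time 10.1% of the 79 passed it, against 2.00% of all genes. Ribosomal protein genes have many near-identical processed pseudogenes, and how reads were divided between these copies is uncertain. Part of the values lay at only a few TPM, as for Rps13, which reached 4 TPM in fast and 8 TPM in slow neurons.

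**Figure D5:**
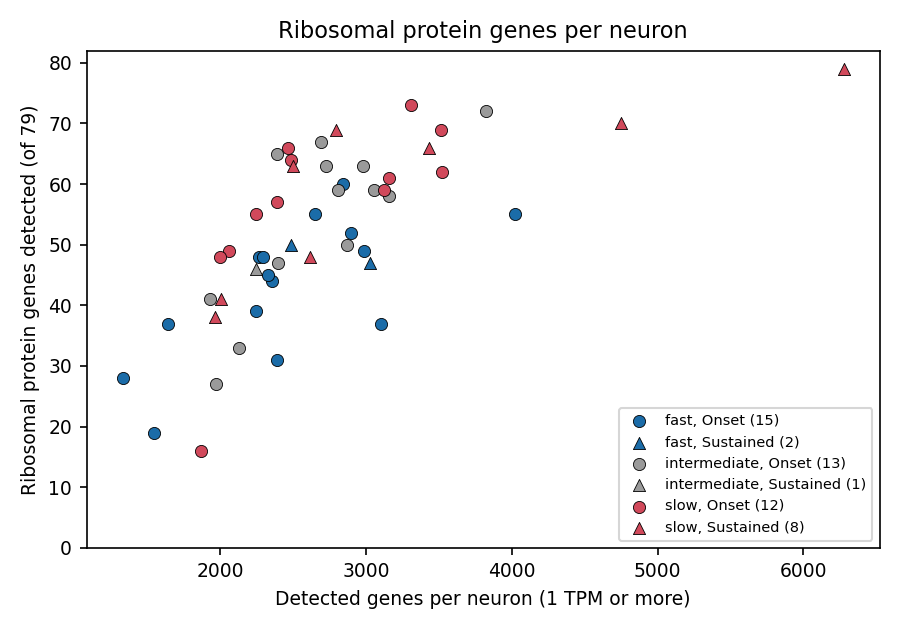
Number of the 79 ribosomal protein genes detected against the number of all genes detected in each of the 51 pLSOs, 1 symbol per neuron, coloured by group and shaped by firing type. Many fast neurons sit below slow neurons of similar numbers of detected genes, and the groups overlap. Over all neurons of each group, the median number of ribosomal protein genes was 47 in fast and 61.5 in slow neurons.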

How the data were processed

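Cytoplasm of single LSO neurons was sequenced by a modified Smart-seq2 protocol. The authors trimmed reads (Trim Galore 0.4.2), aligned them to mm10 with STAR, marked duplicates (Picard 1.115) and assigned reads to genes with featureCounts. The deposited score values are the authors' TPM, rounded to whole numbers, and each library of the 37 neurons sums to between 999773 and 1000021. No read counts are in the table, so depth is unknown. The worth of 1 read in TPM shifts along the table, so levels of different genes were not compared.

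Names of 37570 of 38887 genes came from Gencode vM21. A gene was detected at 1 TPM or more and compared if detected in at least 10 of the 37 neurons. For each gene the pair share, the means and the difference of mean log2(TPM + 1) were computed (Python 3.11.15, SciPy 1.17.1), and the calculation was checked on simulated data. No 2 of the 37 libraries were identical. By rule, receptor genes, members of other fixed lists past a pair share of 35% or 65%, and the 12 genes at each end were named, but some of these are not reported here; further genes named were chosen after their values were seen. The neurons and lists were chosen with earlier results of these data known. Alternatives changed the neurons, limits, scaling, pseudocount and filters.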

Additional observations from a re-analysis of the deposited data

Results flagged for a closer look

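Among 17 recorded or library measures of the 8 slow Sustained neurons, 1 neuron lay far from the others in 1 measure. Its sIPSC rise time was 1.72 ms, against 0.74 ms for the next and 0.44 ms for the lowest, and the gap took 76.6% of the whole range. It was also the neuron with the longest decay time constant, 3.60 ms. Chance sets a neuron apart in about 1 of 20 such groups, which gives 0.85 over 17 measures, so 1 is about the number that chance gives.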

How the results depend on the processing

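The numbers of genes past a limit depended on which neurons were compared and on the low values. In all neurons 268 genes had a pair share of 65% or more, 111 one of 35% or less, 645 a log2 difference of 1 or more and 310 one of -1 or less. Of the first kind, 168 were left at a detection threshold of 10 TPM, where fewer genes were compared, 125 when the pLSOs were divided at the median decay time constant and 75 at the median rise time, against 534 at an input resistance of 60 MΩ or less and 621 with limits of 1.20 and 1.80 ms. Genes of 35% or less numbered 51 at the median decay time constant, 194 in Onset neurons, 202 at 60 MΩ or less, 338 with limits of 1.20 and 1.80 ms and 320 at 2000 to 3500 detected genes. Smaller groups widen the spread of the pair share by construction.

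With a pseudocount of 0.1 TPM the log2 differences gave 1194 genes upward and 537 downward, and with 10 TPM 235 and 128. Upward differences numbered 287 at the median rise time, and downward ones 545 with limits of 1.20 and 1.80 ms and 617 at 2000 to 3500 detected genes. Ribosomal protein genes past 65% fell from 35 to 22 at 10 TPM, 10 at the median decay time constant and 8 at the median rise time.

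The pair share of Glra1 was below 50% in all 11 alternatives. It passed 35% in Onset neurons (31.1%), with limits of 1.20 and 1.80 ms (18.5%), without decay time constants under 0.5 or over 2.5 ms (34.2%), at 60 MΩ or less (25.8%), without libraries under 1500 detected genes (33.1%), at 2000 to 3500 detected genes (21.0%) and without cell_33 and cell_35 (34.2%). It stayed short of 35% with the left-out libraries in range (38.5%), at the median decay time constant (36.6%) and at the median rise time (43.5%). Its rho with the decay time constant was -0.39 in Onset neurons. Glrb passed 35% at the median rise time (32.3%). Of 24 genes at the ends of the ranking, 24 stayed past their limit in Onset neurons and 7 in every alternative, and 0 reversed. These genes were picked as extremes of the same neurons, of which the Onset neurons are a part. Some, such as Taok3, also met the detection filter only through the slow group. The counts are therefore no separate support. The alternatives without cell_33 and cell_35 and at 2000 to 3500 detected genes were chosen after seeing the data. Input resistance and rise time kept their direction in the 2 alternatives run. No paired analysis was possible because the groups share no animals or replicate numbers that the labels name. The depth of the libraries is unknown, and a gene listed at 0 may have been missed.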
